A study of Homo sapiens with 6 samples.

Results

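Genes for ribosome biogenesis factors, the proteins that process ribosomal RNA and assemble the ribosomal subunits, were examined for nearby GABPA peaks in the human melanoma line A-375. The set holds 60 of the 19974 protein-coding genes that RefSeq places on the autosomes and X. It comprises 32 small-subunit factors, 23 large-subunit factors and 5 factors that serve both subunits. A gene was counted as marked in a list when the list had a summit no more than 1 kb from the nearer end of its RefSeq span.

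GABPA occupancy was measured by ChIP-seq in 3 conditions, with 1 ChIP library and 1 input per condition. The controls were parental A-375 cells and a ROSA26 knockout line, ROSA26 being a site often edited as a control. In the third line, called the knockout here, the B1 subunit of GABP had its exon 2 knocked out and TERT, the catalytic subunit of telomerase, had then been knocked in. Edited lines were grown from single sorted cells, so each is 1 clone, and the B1 knockout, the TERT knock-in and the clone cannot be told apart. Peak lists carry no expression values, and the identity of the cells was therefore not checked against marker genes.

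The lists held 3024 parental, 3857 ROSA26 and 1660 knockout peaks. The lists hold no read totals, but the reads recovered from the peak statistics differed between the libraries. The commonest local background corresponded to 15.4 (parental), 14.2 (ROSA26) and 9.86 (knockout) reads. The median summit corresponded to 132, 122 and 82 reads in the same order. A position without a listed peak lies below the limit of the peak caller in that library and is not shown to be unbound. Fold enrichment was taken as the authors deposited it, the ratio of reads at the summit to the local background, and no direction is read from folds of different lists. With no replicate of any condition, no test between conditions was made. The intervals given below for shares are exact Clopper-Pearson 95% intervals over genes. Those for differences between shares join the Clopper-Pearson limits of the shares compared and are approximate. All of them cover counting error only.

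GABP is a transcription factor in which GABPA, an ETS family protein, contacts DNA and a B subunit supplies the activation domain. ETS proteins recognise a GGAA core, and GABPA is known to prefer CCGGAA, often extended to CCGGAAGT. Ribosome assembly starts in the nucleolus, where the small-subunit processome forms on the nascent pre-ribosomal RNA with the UTP-A, UTP-B and U3 snoRNP complexes and the MPP10 complex. Large-subunit precursors form on the remaining part of the transcript and are remodelled by GTPases, helicases, RNA methyltransferases and the PeBoW complex before export to the cytoplasm.

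The ETS core nearest to the parental summit is shown with 12 bases on either side for the kept genes with the highest parental fold that had a core in the RefSeq promoter table (GRCh38.p14, with coordinates as in hg38). Kept means that the gene was marked in both controls and in the knockout. Capitals mark CCGGAA or its reverse complement TTCCGG, and sequences read 5′ to 3′ on the strand of the gene.
EMG1, chr12:6970835-6970864, plus strand: tcaaaatggcagCCGGAAggaaatttgtga
NOC3L, chr10:94362969-94362998, minus strand: tcccgccctcacTTCCGGcggcggaggatt
NSA2, chr5:74767113-74767142, plus strand: acacctccacacTTCCGGcggtgtaccggc
WDR3, chr1:117929699-117929728, plus strand: ggcggaagaggcTTCCGGAAcggacccgga
NOC2L, chr1:959256-959285, minus strand: ggcattctggggCCGGAAgtggggtgcacg
UTP3, chr4:70688382-70688411, plus strand: gattttaattcaCCGGAAtcgactggcgtt

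The same stretch is shown for genes marked in both controls without a knockout peak, as far as a core was found. It lets the cores of both groups be set side by side. UTP25 had no core in its promoter, and NOP58 has no sequence in the promoter table and was not searched.
LTV1, chr6:143843270-143843299, plus strand: agcctatgtaacTTCCGGtcgcgacccatc
IMP4, chr2:130342735-130342764, plus strand: gagaacgccctgCCGGAAtggccaatcgcc
NOP2, chr12:6568361-6568390, minus strand: ggcgagcgtaagTTCCGGgtgcggcggccg
RRP9, chr3:51942118-51942147, minus strand: cacagcatcaggCCGGAAgcgccgtggaga
All 10 stretches hold the core because they were chosen for it. In WDR3 a forward and a reverse match overlap, so that the capitals run over both.

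Kept genes also included promoters without the core, and 2 upstream sequences show the contrast. In EMG1, 250 bases before the start held 2 cores, in capitals (chr12:6970663-6970912, plus strand).
EMG1: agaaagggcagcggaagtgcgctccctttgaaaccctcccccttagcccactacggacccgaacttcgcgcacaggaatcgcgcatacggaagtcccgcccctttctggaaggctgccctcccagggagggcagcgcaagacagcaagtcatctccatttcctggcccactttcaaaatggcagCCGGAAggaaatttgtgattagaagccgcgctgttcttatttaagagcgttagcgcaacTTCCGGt
The 250 bases before the UTP6 start (chr17:31901709-31901958, minus strand) held no CCGGAA on either strand, and capitals mark GGAA or TTCC there.
UTP6: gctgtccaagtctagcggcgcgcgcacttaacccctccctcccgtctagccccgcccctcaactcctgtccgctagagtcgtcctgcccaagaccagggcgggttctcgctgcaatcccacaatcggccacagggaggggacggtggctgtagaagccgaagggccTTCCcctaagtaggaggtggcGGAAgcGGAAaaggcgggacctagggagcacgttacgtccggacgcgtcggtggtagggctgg
The parental summit lay 63 bp before the UTP6 start, and the parental fold there was 8.95. At EMG1 the parental summit lay 135 bp before the start, 71.5 and 130.5 bp from the centres of the cores. Other GGAA matches are not marked in the EMG1 sequence, so the capitals of the sequences are not comparable.

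Of the 60 genes, 32 were marked in the parental list (53.3%, interval 40 to 66.3), against 15.5% of all protein-coding genes. The ROSA26 list marked 38 (63.3%, interval 49.9 to 75.4), against 18.5% of all. The knockout list marked 26 (43.3%, interval 30.6 to 56.8), against 9.32% of all. Every gene marked in the parental list was also marked in the ROSA26 list, so 32 genes were marked in both controls, where the share over all genes was 15.3%. Of these, 26 had a knockout peak (81.2%, interval 63.6 to 92.8), and over all genes marked in both controls 60.4% did. A further 6 of the 60 genes were marked in the ROSA26 list alone, and 22 in none. Of all 19974 protein-coding genes, 630 were marked in the ROSA26 but not the parental list, and 16251 in none. The median parental fold of the 32 genes was 9.61 (2.59 to 16.9), against 7.08 over all genes marked in both controls, and 24 of the 32 lay above that value.

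**Figure D1:**
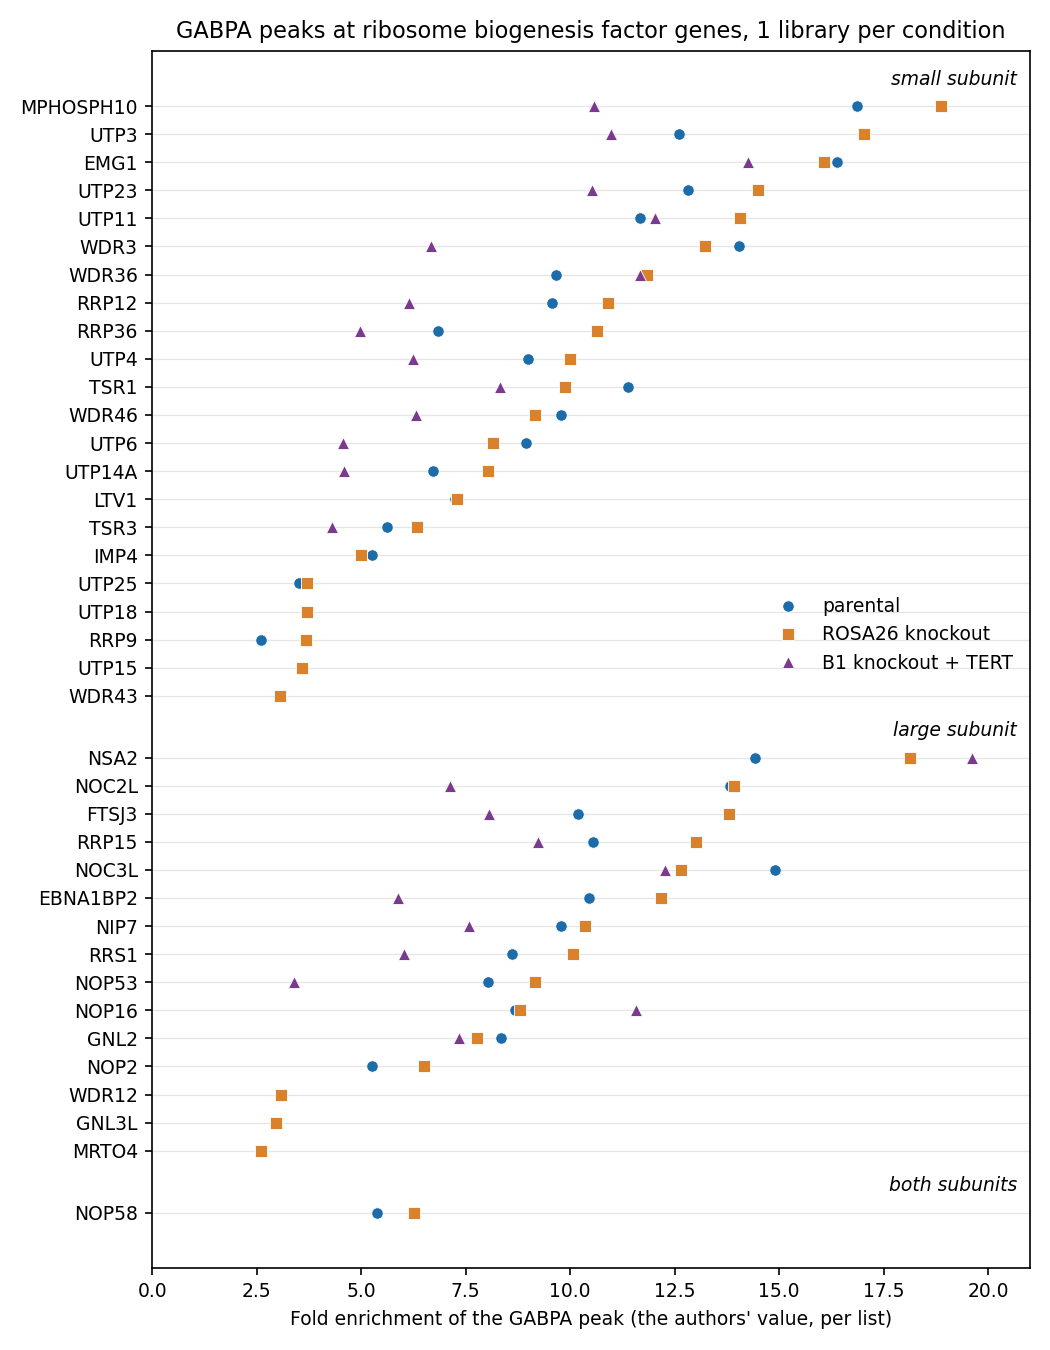
Fold enrichment (the authors' value, horizontal axis) of the nearest GABPA peak at each marked ribosome biogenesis factor gene, by class, with 1 point per library. Of the 38 genes drawn, 26 have a triangle for the knockout library, and the 6 genes with a ROSA26 square alone lie between 2.61 and 3.69.

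Of the UTP-A complex, which joins the pre-ribosomal RNA first, 4 genes belong to the set, and 1 of these was marked in the parental list and 3 in the ROSA26 list. UTP4 had folds of 8.98, 9.99 and 6.25 in the parental, ROSA26 and knockout lists, at a peak shared with the ends of CHTF8 and DERPC. UTP15 and WDR43 were marked in the ROSA26 list alone, at folds of 3.59 and 3.07. WDR75 was marked in none. The UTP-A genes HEATR1 and NOL11 are not in the set and were counted with the other pathway genes. HEATR1 had control folds of 5.47 and 5.65 without a knockout peak, and NOL11 was marked in none.

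UTP-B, the complex that binds after UTP-A, has 4 genes in the set, of which 3 were marked in every list. WDR3 (gene ID 10885, chromosome 1, 117929739 to 117966543) had folds of 14.0, 13.2 and 6.68 in the parental, ROSA26 and knockout lists, from 269, 291 and 129 reads at the summit. Its parental summit lay 33 bp before the start, and the peak is shared with GDAP2. For WDR36 the folds were 9.65, 11.8 and 11.7, and for UTP6 they were 8.95, 8.15 and 4.56. UTP18 had a ROSA26 peak alone, at a fold of 3.69. Of the UTP-B genes outside the set, TBL3 had folds of 11.8, 10.5 and 4.94, and PWP2 was marked in none.

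The U3 snoRNP and MPP10 group differed within itself. MPHOSPH10, the scaffold of the MPP10 complex (gene ID 10199, chromosome 2, 71130634 to 71150101), had the highest parental fold of the 60 genes, 16.9, with 18.9 in the ROSA26 and 10.6 in the knockout list. Its summits held 330, 363 and 182 reads, 21 bp outside the span in the parental list, at a peak shared with MCEE. IMP4, a partner of MPHOSPH10 (gene ID 92856, chromosome 2, 130342897 to 130347967), had folds of 5.26 and 4.99 in the controls and no knockout peak. RRP9, which binds the U3 snoRNA (gene ID 9136, chromosome 3, 51933429 to 51941904), had 2.59 and 3.68 and no knockout peak. IMP3, the other partner in the MPP10 complex, was marked in none, so the 3 proteins of that complex fell into 3 different classes.

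Among the 12 other processome genes, 8 were marked in both controls and 7 of those were kept. EMG1, a methyltransferase of 18S rRNA (gene ID 10436, chromosome 12, 6970913 to 6997428), had folds of 16.4, 16.1 and 14.3 from 368, 398 and 155 reads. The EMG1 peak lay 135 bp before the start and is shared with PHB2. UTP23 (gene ID 84294), a processome protein, had folds of 12.8, 14.5 and 10.5 from 267, 285 and 114 reads, at a peak shared with EIF3H. UTP3 (gene ID 57050, chromosome 4, 70688532 to 70690551) had 12.6, 17.0 and 11.0 from 248, 297 and 119 reads, 89 bp before its start. UTP11 (gene ID 51118, chromosome 1, 38012734 to 38024820) had 11.7, 14.1 and 12 from 297, 335 and 185 reads, 58 bp before its start. These 4 genes stood above 10 in every list.

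WDR46, a scaffold protein of the processome, had folds of 9.79, 9.17 and 6.32 in the parental, ROSA26 and knockout lists. RRP36 had 6.83, 10.6 and 4.96. UTP14A, which activates a processome helicase, had 6.71, 8.04 and 4.58. These 3 kept genes stood lower than EMG1, UTP3, UTP11 and UTP23 within each list. UTP25 (gene ID 27042, chromosome 1, 209827972 to 209857565) had 3.51 and 3.69 in the controls and no knockout peak. NOC4L, NOP14, RRP7A and UTP20 were marked in none.

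Factors of late 40S maturation and export were marked in both controls for 4 of 8 genes, and 3 were kept. TSR1, a GTPase-like factor on cytoplasmic pre-40S particles (gene ID 55720, chromosome 17, 2322396 to 2336457), had folds of 11.4, 9.87 and 8.32 from 218, 235 and 125 reads, with the parental summit 6 bp before its start. RRP12, an export factor, had 9.57, 10.9 and 6.15. TSR3, which modifies 18S rRNA, had 5.62, 6.33 and 4.30, the lowest parental fold of any kept gene in the set. LTV1, another pre-40S factor (gene ID 84946, chromosome 6, 143843338 to 143863812), had 7.25 and 7.29 in the controls and no knockout peak. NOB1, the endonuclease that makes the last cut of 18S rRNA, its partner PNO1, TSR2 and, by its span ends, BYSL were marked in none.

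Large-subunit factors spanned a similar range. NSA2, a pre-60S factor (gene ID 10412, chromosome 5, 74767249 to 74780113), had folds of 14.4, 18.1 and 19.6 in the parental, ROSA26 and knockout lists, from 418, 466 and 296 reads. Its parental summit lay 60 bp before the start at a peak shared with GFM2, and by −log10 p it stood at rank 9 of the knockout list. WDR12, of the PeBoW complex, had a ROSA26 peak alone, 507 bp outside its span, at a fold of 3.09. The other PeBoW genes, PES1 and BOP1, were marked in none, as were NLE1 and, by its span ends, WDR74, which act in the remodelling of pre-60S particles.

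NOC2L and NOC3L, which accompany pre-60S particles through the nucleus, were both kept. NOC3L (gene ID 64318, chromosome 10, 94314907 to 94362939) had folds of 14.9, 12.6 and 12.3 from 309, 313 and 167 reads, with the parental summit 55 bp before its start. NOC2L (gene ID 26155, chromosome 1, 944203 to 959256) had 13.8, 13.9 and 7.11 from 232, 332 and 99 reads, 28 bp before its start. Of the nucleolar GTPases, GNL2 had 8.34, 7.76 and 7.33. GNL3L had a ROSA26 peak alone at 2.96, and GNL3 was marked in none. Each group of large-subunit factors apart from NOC2L and NOC3L thus held at least 1 gene that was not marked in all lists.

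The enzymes that methylate 28S rRNA were again split. FTSJ3 had folds of 10.2, 13.8 and 8.07, at a peak 513 bp inside its span and 281 bp from an end of PSMC5, a proteasome gene. NOP2 (gene ID 4839, chromosome 12, 6556871 to 6568291) had 5.25 and 6.51 in the controls and no knockout peak, and RRP8 was marked in none. Of the 9 remaining large-subunit factors, 6 were marked in both controls and all 6 were kept.

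Among those 6, RRP15 had folds of 10.5, 13.0 and 9.22 in the parental, ROSA26 and knockout lists. EBNA1BP2 had 10.5, 12.2 and 5.89, and NIP7 had 9.78, 10.4 and 7.58. RRS1, which helps to bring the 5S particle into the pre-60S, had 8.61, 10.1 and 6.01. NOP16 and NOP53 were the extremes: NOP16 had 8.67, 8.81 and 11.6, whereas NOP53, an adaptor for RNA trimming by the exosome, had 8.02, 9.16 and 3.39, the lowest knockout fold in the set. MRTO4 had a ROSA26 peak alone at 2.61, and RRP1 and RRP1B were marked in none.

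Of the factors that serve both subunits, only NOP58, a scaffold of box C/D snoRNPs (gene ID 51602, chromosome 2, 202265763 to 202303661), was marked. Its control folds were 5.38 (parental) and 6.26 (ROSA26), and it had no knockout peak. FBL, the methyltransferase of those particles, NOP56, and the nucleolar proteins NCL and NPM1 were marked in no list.

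Small-subunit and large-subunit factors did not differ beyond counting error in any list. In both controls 19 of 32 small-subunit genes (59.4%, interval 40.6 to 76.3) and 12 of 23 large-subunit genes (52.2%, interval 30.6 to 73.2) were marked. The difference, small minus large, was 7.20 percentage points with an interval of −20.9 to 34.6. In the ROSA26 list it was 3.53 points (−22.7 to 30.6) and in the knockout list −0.951 points (−28.9 to 27.0). Of the genes marked in both controls, 15 of 19 small-subunit (78.9%, interval 54.4 to 93.9) and 11 of 12 large-subunit genes (91.7%, interval 61.5 to 99.8) were kept, a difference of −12.7 points (−38.5 to 21). All of these intervals include 0, and they also leave room for differences of over 20 points in either direction. Counting only starts turned the sign of the difference in both controls, to −1.38 points, but covered only the 49 genes with a start in the promoter table. Counting ends or starts over all 55 genes gave 5.98 points. With equal numbers of peaks per list the sign also turned, to −4.08 points over the 55 genes.

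Whether a control peak had a counterpart in the knockout list followed its strength, over all genes as within the set. All genes marked in both controls were cut into 4 equal bins of parental fold, and the share kept was 8.36%, 48.3%, 87.3% and 97.8% from the lowest to the highest bin. The biogenesis factors had 0 of 2, 3 of 6, 11 of 12 and 12 of 12 kept in the same bins. In each bin the interval of the factors included the share over all genes, and 24 of the 32 factors fell in the upper 2 bins. Restricting each list to its 1660 strongest peaks cut only the control lists, because the knockout list holds 1660 peaks. It left 25 factors in both controls, all kept (interval 86.3 to 100), against 89% of all genes, which the interval includes.

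**Figure D2:**
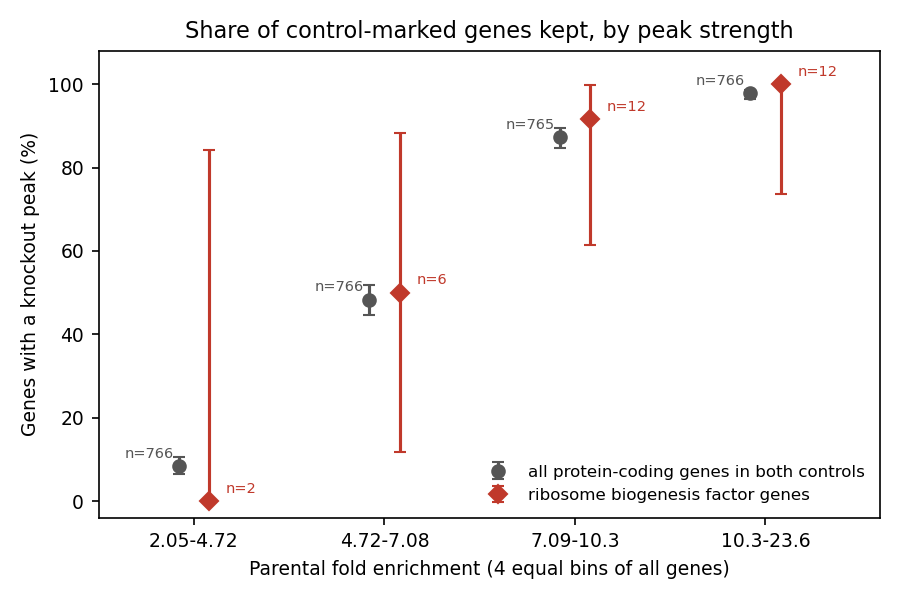
Share of genes marked in both controls that have a knockout peak (vertical axis, percent), by bin of parental fold enrichment, for all protein-coding genes (grey) and ribosome biogenesis factor genes (red). Bars are exact 95% intervals over genes, and the red points stand at 0%, 50%, 91.7% and 100% against 8.36%, 48.3%, 87.3% and 97.8% in grey.

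The 6 genes without a knockout peak had lower control folds than most kept genes. By −log10 p they stood from 49.9% (LTV1) to 98.2% (RRP9) of the way down the parental list and from 45.0% (NOP2) to 82.0% (RRP9) down the ROSA26 list. Their parental folds ran from 2.59 (RRP9) to 7.25 (LTV1) and those of the kept genes from 5.62 (TSR3) to 16.9. The ranges overlap, because TSR3, UTP14A and RRP36 were kept at parental folds below that of LTV1. Reads at the parental summit were 119 for LTV1, 88 for NOP58, 86 for IMP4, 127 for NOP2, 112 for UTP25 and 65 for RRP9. The ROSA26 summits held 110, 97, 75, 137, 155 and 57 reads in that order.

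The −log10 p of each control peak was also computed for the lower background of the knockout library. Its summit reads and its local background were scaled by the same factor. On this scale the kept genes ran from 24.2 to 193 in the parental list (median 91.3) and from 34.6 to 260 in the ROSA26 list (median 126). The genes without a knockout peak ran from 7.19 to 37.7 (median 21.9) and from 11.0 to 42.0 (median 28.6). LTV1 stood at 37.7 in both lists, and NOP2 at 30.6 and 42.0. The weakest peak of the knockout list had a −log10 p of 4.74 and 10% of its peaks lay under 13.6. RRP9, at 7.19 and 11.0, was the only one of the 6 below 13.6 in both lists. Why these 6 genes had no knockout peak was not tested. Over all genes the medians were 72.6 and 97.5 for kept genes and 18.5 and 27.4 for genes without a knockout peak.

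**Figure D3:**
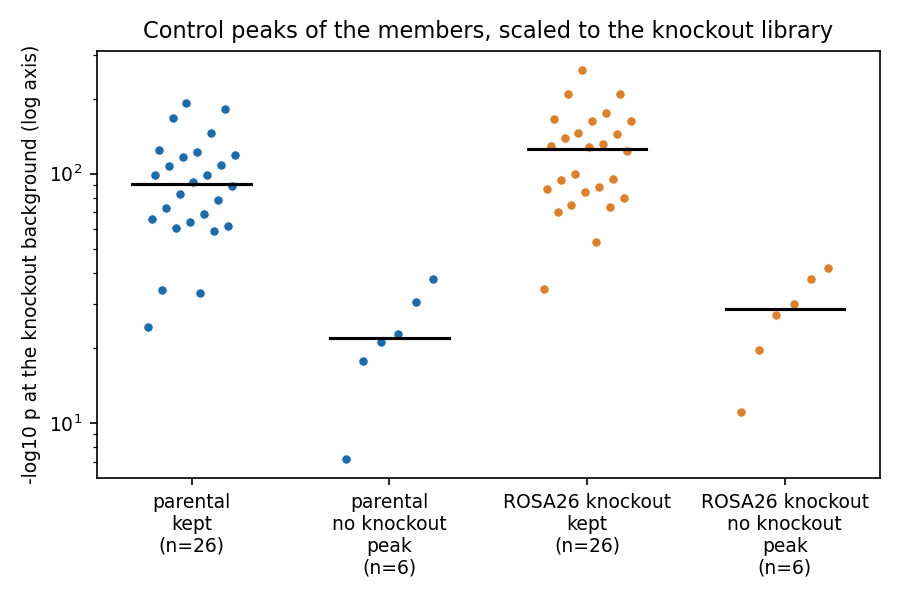
The −log10 p of control peaks at ribosome biogenesis factor genes, scaled to the background of the knockout library (logarithmic vertical axis), for 26 kept genes and 6 genes with no knockout peak in each control library. Horizontal bars are medians, and the highest genes without a knockout peak, at 37.7 and 42.0, lie above the lowest kept genes, at 24.2 and 34.6.

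The 6 genes marked in the ROSA26 list alone had weak peaks there. At UTP15, UTP18, WDR43, WDR12, GNL3L and MRTO4 the folds ran from 2.61 to 3.69, their −log10 p from 10.2 to 26.3 and their reads from 44 to 94. They stood between 69.9% and 94.4% of the way down the ROSA26 list, the longest of the 3.

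Peak summits lay close to the gene ends. In the parental list 25 of 32 genes (78.1%, interval 60 to 90.7) had the summit within 100 bp of an end, against 59.0% (57.3 to 60.8) of all marked genes. Of 27 genes with a start in the promoter table, 23 had the summit upstream of it (85.2%, interval 66.3 to 95.8), against 76.8% of all. The summit position was similar in each list: the median distance between parental and ROSA26 summits was 20 bp for kept genes (1 to 40), and between parental and knockout summits 24 bp (3 to 89). Over all kept genes these medians were 15 and 19 bp. The largest parental to knockout distances were at NOP16 (89 bp), WDR46 (83 bp) and NOP53 (81 bp).

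**Figure D4:**
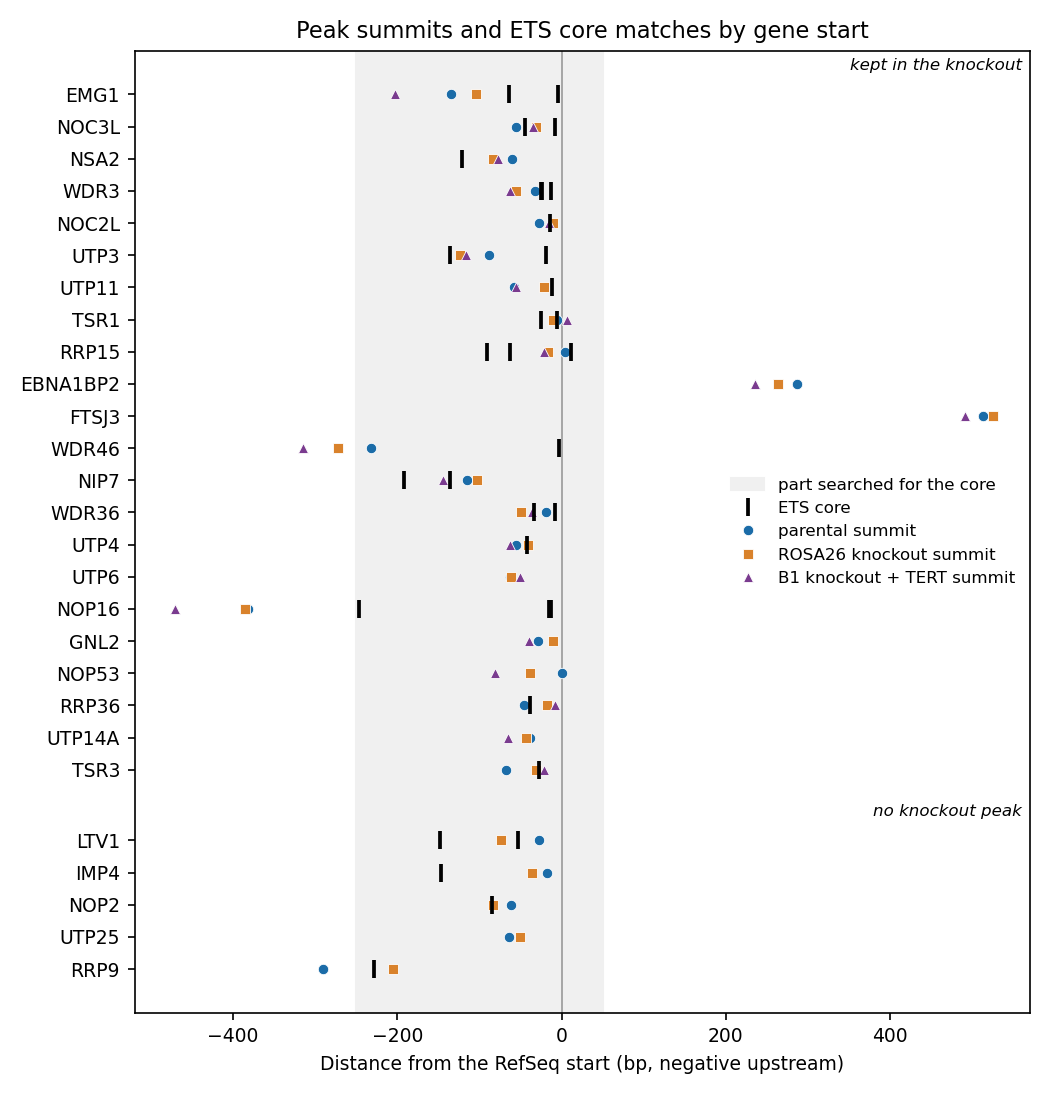
Distance of GABPA summits and ETS core matches from the RefSeq start (horizontal axis, bp, negative upstream) for the 27 genes marked in both controls that have a promoter sequence, kept genes above and genes with no knockout peak beneath. Most summits lie just upstream of 0, while those of FTSJ3 and EBNA1BP2 lie inside the gene, at 513 and 286 bp in the parental list.

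The CCGGAA core, searched on both strands with overlapping matches counted once, was found in 29 of the 53 factor promoters in the table (54.7%, interval 40.4 to 68.4). Each promoter covers 250 bases before to 50 after the start. The core was held by 22.8% of 15813 protein-coding promoters and by 17.6% of all 27305 promoters in the table. CCGGAAGT was in 9 of 53 (17.0%), against 6.20% of protein-coding promoters and 4.44% of all, and GGAA in 51 of 53 (96.2%), against 95.1% and 95.5%. The shorter motif lies inside the longer ones, and a match describes letters in the window, not a bound site.

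Split by peak status, kept factors had the core in 16 of 22 promoters (72.7%, interval 49.8 to 89.3), against 74.7% of all kept genes. Factors in both controls without a knockout peak had it in 4 of 5, against 55.6% of such genes. Factors not marked by their span ends in any list had it in 7 of 20 (35%, interval 15.4 to 59.2), against 12.7%. The 7 promoters are those of FBL, NOP56, RRP8, WDR74, BYSL, PNO1 and TSR2. Of these, WDR74 and BYSL had control summits within 1 kb of the start used for the promoter, which lies inside their spans, and the others had none that near. Among kept factors, 6 (EBNA1BP2, FTSJ3, UTP6, GNL2, NOP53 and UTP14A) had no core in the window.

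By number of cores in the promoter window, the factors kept were 6 of 7 with none, 7 of 10 with 1 and 9 of 10 with 2 or more. The window does not reach the parental summits of FTSJ3 and EBNA1BP2, which are counted with none. Nor does it reach those of NOP16 and RRP9, so the cores at these summits are not known. Over all genes marked in both controls the shares kept were 47.2%, 60.4% and 78.0%, while the median parental fold was 5.60, 6.83 and 9.66 in the same order. Over all genes core number and peak strength therefore moved together. For the factors the median parental folds were 8.34, 7.91 and 11.0 in the same order. The parts of core number and peak strength were not tested. In the 20 factors with a core that were marked in both controls, the nearest core lay at a median of 24 bp from the parental summit. Of these, 14 lay within 50 bp (70%, interval 45.7 to 88.1). Over all 1765 such genes the median was 20.5 bp and the share 75.3%.

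Several promoters are shared with a neighbouring gene, so that the peak cannot be assigned to the biogenesis factor alone. A parental peak within 1 kb of another gene's end was found for 15 of 32 factors (46.9%, interval 29.1 to 65.3), against 43.4% of all genes marked in both controls. These were 13 of the 26 kept factors and 2 of the 6 without a knockout peak. In 9 cases the neighbour's end was the nearer one in at least 1 control: EBNA1BP2 (CFAP57), RRP9 (PARP3), NSA2 (GFM2), NOP16 (HIGD2A), EMG1 (PHB2), TSR3 (GNPTG), UTP4 (CHTF8 and DERPC), NIP7 (COG8) and FTSJ3 (PSMC5). At EBNA1BP2 the parental summit was 286 bp inside the gene and 46 bp from the start of CFAP57, and at NOP16 it was 382 bp outside the gene and 229 bp from HIGD2A.

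The farthest summit counted was that of FTSJ3, at 513 bp in the parental and 525 bp in the ROSA26 list. The nearest that was not counted lay 1178 bp outside the distal end of WDR74. A limit of 2 kb would add this gene and bring the counts to 33, 39 and 27 in the parental, ROSA26 and knockout lists.

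For WDR74 and BYSL the start in the promoter table lies inside the span, and control summits lay within 1 kb of it. The WDR74 peaks covered the start, whereas the BYSL peaks ended before it. This was looked at after the values were seen. WDR74 (chromosome 11, start at 62839590) had control folds of 4.83 (parental) and 7.41 (ROSA26) from 128 and 149 reads, with both summits 7 bp before the start. BYSL, a pre-40S factor (chromosome 6, start at 41921499), had folds of 4.72 and 3.80 from 77 and 76 reads, 321 and 415 bp before the start. Neither had a knockout peak there. The stretch around the core at the WDR74 start, with the core in capitals, is shown because it contains both summits.
WDR74, chr11:62839588-62839617, minus strand: gcacacgctgcgCCGGAAgtgtgaactgtc
Counting ends or starts, 34 of the 60 factors were marked in both controls, against 15.8% of all genes, and 26 of the 34 were kept (76.5%, interval 58.8 to 89.3), against 60.4%. That gave 15 of 20 small-subunit and 11 of 13 large-subunit factors kept.

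Another 76 genes of ribosome biogenesis, 38 of the large subunit and 38 of the small subunit or common to both, were counted in the same way. The parental list marked 52 of these (against 15.5% of all genes), the ROSA26 list 53 (against 18.5%) and the knockout list 43 (against 9.32%). In both controls 52 were marked, against 15.3% of all genes, and 43 of those 52 were kept (82.7%, interval 69.7 to 91.8), against 60.4%. The large-subunit genes had 30 of 38 marked in both controls and 25 kept, the others 22 of 38 and 18 kept. The highest parental folds among the kept genes were 18.4 for PDCD11, a processome protein, 17.8 for DDX55, an RNA helicase, 16.4 for RIOK1, a pre-40S kinase, and 15.2 for RSL24D1, a pre-60S protein. Their knockout folds were 13.1, 18.7, 12 and 13.6.

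Of the 9 other pathway genes without a knockout peak, the strongest in the parental list was TCOF1, which promotes transcription of ribosomal DNA, at 9.10, with 8.66 in the ROSA26 list. SURF6 had folds of 8.21 and 10.9, SBDS, a late 60S factor, 7.27 and 9.50, and AATF 5.72 and 8.01. By the 4 bins of parental fold, these other genes had 3 of 6, 4 of 7, 15 of 18 and 21 of 21 kept. In the lowest bin the interval of 11.8 to 88.2% lay above the 8.36% of all genes, and in the other bins it included the share over all genes.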

How the data were processed

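Peaks of 3 GABPA ChIP libraries were used; the 3 inputs were not analysed on their own. The authors used Bowtie2, SAMtools and MACS2 with hg38, per the submitters' processing notes. The sources used here do not give versions, thresholds or the use of the input. The deposited lists give the fold enrichment (ratio to local background), the −log10 p and −log10 q of each summit, a score derived from −log10 q, and the summit's offset in bp. Reads at each summit were recovered by inverting the MACS2 formulas for fold and −log10 p. All peaks were solved within 0.01, and all peaks of 3 simulated lists were recovered. The simulated lists were made with the same formulas, so their recovery checks the inversion and not whether the authors' settings followed those formulas.

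Gene spans and promoter sequences came from RefSeq tables of GRCh38.p14, and 53 of the 60 genes had a promoter sequence. Python 3.11.15, pandas 2.3.3 and SciPy 1.17.1 were used. All 60 genes are accounted for. The 10 of highest parental fold and every gene in both controls without a knockout peak are described, with cores for up to 6 kept and 6 not kept genes. Of the other pathway genes, the 4 strongest kept and not kept are named. The genes, the lists and the measures were chosen with earlier results of these data known. Alternatives varied the distance, the end, the assignment of peaks, the peak threshold, the matching of peaks, the reference list, the classes and the motif.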

Additional observations from a re-analysis of the deposited data

How the results depend on the processing

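Of 82 values recomputed under alternatives, 2 changed sign and 7 left the range allowed for them, which is the 95% interval of the reported share or difference, or a set ratio to the reported count. The other 73 stayed within it, which for differences is wide. The small minus large difference in both controls ran from 2.85 points (within 2 kb) to 16.4 (nearest gene alone) among them, and the difference in the share kept went from −12.7 points to 0 with equal numbers of peaks. With the 1660 strongest peaks of each list, 25 genes were marked in the ROSA26 list, and the shares kept were 100% over the set, 100% for small-subunit and 100% for large-subunit genes. The small minus large difference in both controls reversed to −4.08 points there. It reversed to −1.38 points when starts alone were counted, over the 49 genes of these classes with a start in the promoter table. Assigning each peak to the nearest gene alone left 30.4% of large-subunit genes marked in both controls. The share kept over the set was lowest, 68.4% (interval 51.3 to 82.5), with the ROSA26 list as the reference. It was 73.9% (51.6 to 89.8) with the nearest gene alone and 75.9% (56.5 to 89.7) with starts alone. The share over all genes is not given here for those settings. The share of promoters with the motif was 17.0% for CCGGAAGT and 96.2% for GGAA. The setting that counts ends or starts was chosen after seeing the data. No paired analysis was possible because each condition has 1 ChIP library. The knockout library had the lowest background and summit reads, and whether this limited which weak peaks were listed was not tested. Gene-level intervals do not cover variation between clones or libraries.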
